A study of Rattus norvegicus with 4 samples.

Results

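The genes described here mark fibroblasts and myofibroblasts, the cells that make and contract the connective tissue of an organ. They were the PDGF receptors Pdgfra and Pdgfrb, the contractile genes Acta2 and Tagln, the matrix glycoproteins Fn1 and Fbn1, the matricellular genes Postn and Sparc, and the small leucine-rich proteoglycans Dcn and Lum. Members were found by gene symbol in the array annotation, and 9 of the 10 genes had features of their own, 26 features among the 45220 of the table and 9 genes among 14871 named ones. The feature that names Acta2 names a second actin gene as well, so Acta2 has no value here. Of the 9 genes, 2 (Pdgfra and Lum) had 1 feature and 7 had more, and the features of 1 gene were averaged on each array.

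The samples were kidney allografts of rats labelled Lew. One sample on each array came from a recipient given the ApoE-mimetic peptide, which imitates apolipoprotein E, at 6 mg/kg by daily injection into a vein from the day of transplantation. The other came from a recipient given a control peptide on the same schedule. All grafts were taken on day 4, and both groups carried an allogeneic graft with no ungrafted kidney among the samples. The donor strain was not in the labels used here. Each of 4 two-colour Agilent arrays held a pair of samples, labelled as biological replicates, with the ApoE-mimetic RNA in Cy5 on replicates 1 and 3 and in Cy3 on replicates 2 and 4. The series title names acute rejection and a protective role of apolipoprotein E, and the comparison asked here is whether stromal transcripts of the graft differed between the peptides.

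Resident fibroblasts of the kidney interstitium and the pericytes on its capillaries carry PDGF receptors, which bind PDGF dimers and drive growth and migration of these cells. In injured kidneys such cells can become myofibroblasts, which build smooth muscle actin fibres and lay down fibronectin, collagens and matricellular proteins under the influence of TGF-beta. Decorin and lumican bind collagen fibrils and set their spacing, and fibrillin 1 forms the microfibrils that hold latent TGF-beta in the matrix.

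The values are ratios of the channels of an array on a log2 scale and hold no level of either sample. In bulk tissue, fewer cells of a type and less RNA per cell cannot be told apart. The table does not state which channel is the numerator. The columns were read here as Cy5 over Cy3, replicates 2 and 4 were turned, and each array was centred on its median gene, so that a positive value means more signal from the ApoE-mimetic sample. If Cy3 is the numerator, every sign below turns and every p-value stays. Channel labels exchanged on 1 array alone would turn that array's values and change every coefficient, and no reading of that kind was run. Replicates 1 and 3, of one dye orientation, ran against each other, and their Pearson correlation was -0.238 over all features and -0.657 over the 13363 that counted as neither dim nor saturated. A feature counted as dim where more than 2 features of an array held exactly its value. Of the 26 features of these genes 19 were neither dim nor saturated on any array and 7 were dim on at least 1, and 8 of the 9 genes had a feature of the first kind, all but Postn. Replicate 4 had the widest spread, with an SD of 1.26 against 0.87 to 0.89 on the other arrays.

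No fibroblast or myofibroblast gene differed between the peptides by the test used. With limma, fitted over 14847 genes with a treatment and a dye term, 0 of the 9 genes had an adjusted p under 0.05, against a background of 0% of all genes, and every adjusted p was 0.9999. At an unadjusted p under 0.05 there were also 0 of 9, against 3.39% of all genes, and the lowest unadjusted p, that of Fbn1, was 0.151. The smallest p that an exact sign-flip test over 4 arrays can give is 0.13 after rounding. The coefficient lay below 0, the control side, for 8 of the 9 genes, where 53.0% of all genes did, and the median over the 9 genes was -0.15 against -0.02 over all genes. On the arrays the median of the 9 genes was 0.18, -0.30, -0.52 and -0.66 on replicates 1 to 4, so replicate 1 stood on the other side of 0 from the rest. With dim features left out, 7 of 8 genes lay below 0 against 51.8% of all genes, the median coefficient was -0.24, and the medians on the arrays were 0.16, -0.38, -0.64 and -0.0003. Tagln alone had 1 sign on all 4 arrays, 1 gene of 9 that was negative on every array, as 5.13% of all genes were. With dim features left out, 0 of 8 had 1 sign on all 4 arrays, against 8.50%, and 0 of 8 an unadjusted p under 0.05, against 1.41%. Among single features 0 of 26 had an adjusted p under 0.05 in limma, against 0% of 45094, and 0 of 26 an unadjusted p under 0.05, against 3.85%.

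**Figure D1:**
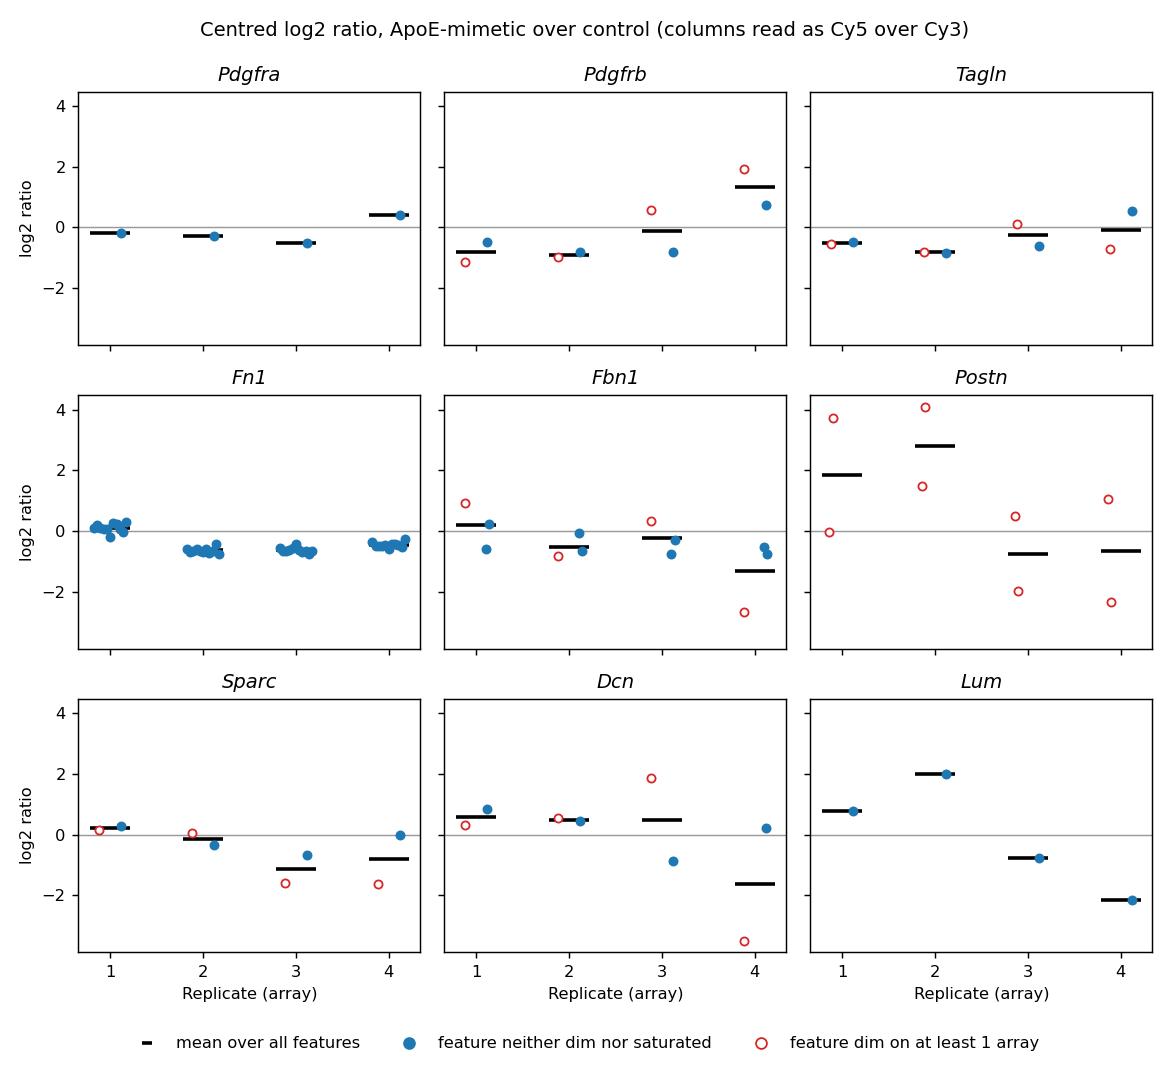
Centred log2 ratios of ApoE-mimetic over control on each of the 4 arrays (x axis, replicate) for the 9 genes, with bars for the mean over a gene's features, filled circles for features neither dim nor saturated and open circles for features dim on at least 1 array. The 11 Fn1 features fall together on every array, while the features of Postn, Dcn and Fbn1 spread apart, and Lum runs from 2.00 on replicate 2 to -2.15 on replicate 4.

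Over all features, both PDGF receptor genes lay below 0 on replicates 1, 2 and 3 and above 0 on replicate 4. Pdgfra, the receptor that marks interstitial fibroblasts, had ratios of -0.19, -0.30, -0.52 and 0.42 on replicates 1 to 4, and its 1 feature was neither dim nor saturated. Centred on such features alone, Pdgfra had 0.01 on replicate 1. Its mean was -0.15 ± 0.40 (SD, n = 4), and limma gave a 95% interval from -0.85 to 0.56. Pdgfrb, the receptor of pericytes and activated fibroblasts, had -0.81, -0.91, -0.12 and 1.33. The mean of Pdgfrb was -0.13 ± 1.03 (SD, n = 4), with a 95% interval in limma from -1.31 to 1.05. Its features disagreed on replicate 3, where the dim one had 0.56 and the other -0.80. With the dim feature left out, Pdgfrb had -0.29, -0.86, -0.78 and 0.63 and a coefficient of -0.32 (SE 0.30). Without replicate 4 the coefficient of Pdgfrb was -0.69, and without replicate 2 it was 0.43, so single arrays set its sign.

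Tagln was the only contractile gene of the group with a value. It encodes transgelin, an actin-binding protein of smooth muscle cells and myofibroblasts. Its ratios were -0.52, -0.83, -0.25 and -0.08 on replicates 1 to 4, all below 0, with a mean of -0.42 ± 0.33 (SD, n = 4). Limma gave an unadjusted p of 0.183 and an adjusted p of 0.9999, and the exact sign-flip p was 0.13, the smallest that 4 arrays allow. The single sign rested on the dim feature, which had -0.70 on replicate 4 where the other had 0.55. It counted as dim by its values on replicates 1 to 3, and on replicate 4 no other feature held its value. With that feature left out, Tagln had -0.28, -0.87, -0.59 and 0.45. These 4 values were the closest of any of 28 pairs of genes to those of Pdgfrb, with a root mean square distance of 0.13 and 1 sign in common on each of the 4 arrays. The pair was picked out after its values were seen.

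Fn1 had the most features of the group, and they agreed closely within an array. It encodes fibronectin, a glycoprotein that links cells to the matrix, and had 11 features spread over columns 2 to 69 of the array grid, none of them dim. The feature ratios ran from -0.21 to 0.30 on replicate 1, from -0.75 to -0.42 on replicate 2, from -0.77 to -0.44 on replicate 3 and from -0.60 to -0.28 on replicate 4. Their SD within an array was 0.142, 0.0916, 0.0882 and 0.0858 on replicates 1 to 4. Over 91 transcripts with at least 8 such features, the median SD was between 0.117 and 0.144. The arrays themselves differed by more than that, since Fn1 averaged 0.11 on replicate 1, against -0.64, -0.63 and -0.46 on replicates 2, 3 and 4. The features of Fn1 on replicate 1 did not overlap those on the other arrays. How many of the 91 transcripts separate arrays in this way was not counted, and features of 1 array are not replicates. Over the arrays the mean was -0.41 ± 0.35 (SD, n = 4), with an unadjusted p of 0.19, an adjusted p of 0.9999 and a 95% interval from -1.10 to 0.29 in limma.

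Fbn1 lay on the same sides as Fn1 on all 4 arrays. It encodes fibrillin 1 and had ratios of 0.18, -0.52, -0.24 and -1.32 on replicates 1 to 4, with a mean of -0.48 ± 0.63 (SD, n = 4). Its dim feature had -2.69 on replicate 4, where the other features had -0.51 and -0.76. This feature counted as dim by its values on replicates 1 to 3, and on replicate 4 no other feature held its value. With the dim feature left out the ratios were 0.01, -0.40, -0.51 and -0.74, and the coefficient was -0.41 (SE 0.17). That fit gave Fbn1 the lowest unadjusted p of the group in limma, 0.0756, with an adjusted p of 0.9999.

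Replicate 4 showed a trend across the array that dim features carried and others did not. Among features dim or saturated on at least 1 array, the median ratio of ApoE-mimetic over control was 0.54 in the first 10 columns of the grid and -1.43 in the last 10. Among the others it was 0.12 in the first 10 columns and 0.05 in the last 10. The Fn1 features of replicate 4 kept within 0.32 of each other over columns 2 to 69. Of the 7 dim features of these genes, those of Dcn, Fbn1, Sparc and Tagln and the one of Postn annotated to a RefSeq mRNA had negative values on replicate 4, at grid columns from 38 to 78, and those of Pdgfrb and the other of Postn had positive values, at columns 11 and 7. The dim features of Tagln, at column 40, and Fbn1, at column 45, had -0.70 and -2.69, values that no other feature of replicate 4 held. Medians of dim or saturated features in those columns were -0.559 and -0.523 as deposited, near the array's centre of -0.549. The part of the trend in the values of single features was not tested.

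**Figure D2:**
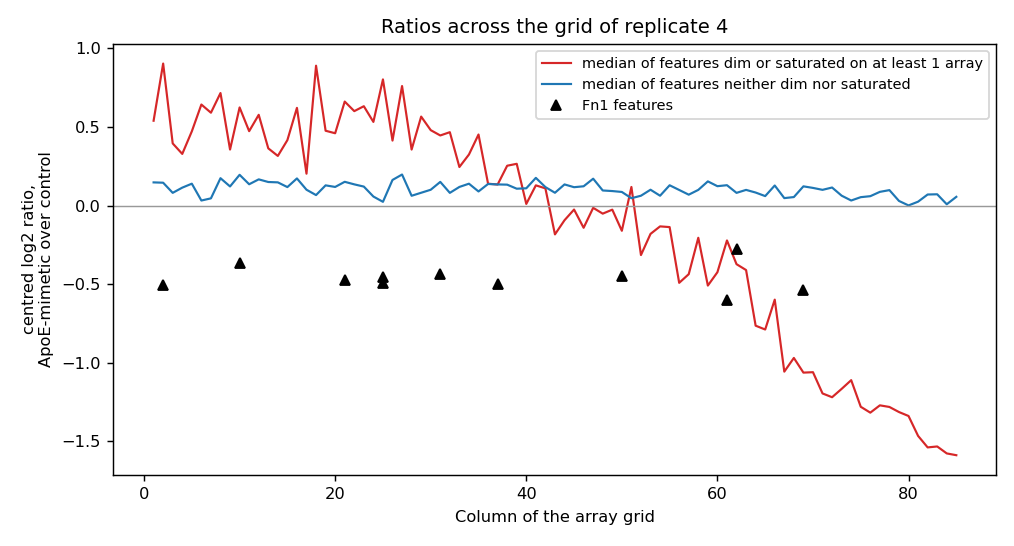
Centred log2 ratio of ApoE-mimetic over control on replicate 4 by column of the array grid (x axis), as the median per column of features dim or saturated on at least 1 array (red line), the median of the other features (blue line) and the 11 Fn1 features (triangles). The red line moves from a median of 0.54 in the first 10 columns to -1.43 in the last 10, whereas the blue line and the Fn1 features stay level.

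Postn and Lum had the widest swings of the group, and both lay above 0 on replicates 1 and 2 and below 0 on replicates 3 and 4. Postn encodes periostin, a matricellular protein of wound fibroblasts, and had 1.84, 2.79, -0.75 and -0.66 on replicates 1 to 4. Its mean was 0.81 ± 1.79 (SD, n = 4), with a 95% interval from -1.14 to 2.76 in limma. The features of Postn did not behave alike. The one annotated to a RefSeq mRNA had 3.73, 4.10, -1.98 and -2.36, and the other had -0.05, 1.49, 0.49 and 1.04. Both counted as dim, the first because 3 features shared its value on replicate 3, and the second because between 5 and 166 features shared its value on each array. Without replicate 4 the coefficient of Postn was 1.67, and without replicate 2 it was -0.05.

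Lum, the gene of the proteoglycan lumican, had 0.77, 2.00, -0.78 and -2.15 on replicates 1 to 4. Its 1 feature was neither dim nor saturated. The mean was -0.04 ± 1.81 (SD, n = 4), the unadjusted p in limma was 0.959, and the 95% interval ran from -2.04 to 1.96. The differences on single arrays were thus large and of both signs, and their mean was near 0. Leaving out a replicate moved the coefficient of Lum from -1.08, without replicate 2, to 1.00, without replicate 4, and it was 0.34 without replicate 3.

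Because Postn and Lum took the same side of 0 on each array, stretches from before their annotated starts are shown, with that of Sparc, whose 250 bases lie wholly outside its gene. The stretches were set by hand, at bases 56 to 27 before the start for Postn and 30 to 1 for Lum, and each holds a match. Other CAGAC matches lie outside them, at bases 166 to 162 for Postn and at 84 to 80 and 228 to 224 for Lum. The sequences are from RefSeq on GRCr8, at chr2:140678005-140678034 for Postn and chr7:34245676-34245705 for Lum, both on the plus strand and inside the span of the gene, and at chr10:40038817-40039066 for Sparc on the minus strand. Capitals mark TATAAA, and CAGAC or its reverse complement GTCTG, the core letters that SMAD proteins of the TGF-beta pathway can bind.
Postn: agcccagagctcTATAAAttcagctctcta
Lum: tgttcacagtgcGTCTGtttaaggaattaa
Sparc: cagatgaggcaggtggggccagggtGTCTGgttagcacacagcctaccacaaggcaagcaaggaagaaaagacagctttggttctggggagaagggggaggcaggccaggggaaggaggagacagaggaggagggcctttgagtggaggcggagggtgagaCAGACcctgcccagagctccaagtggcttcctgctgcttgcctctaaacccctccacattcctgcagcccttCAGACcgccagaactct
Of the 10 genes, 6 had an entry in the RefSeq promoter table (Acta2, Postn, Fbn1, Lum, Sparc and Pdgfra). In the 250 bases before the start, read on both strands, CAGAC was found in 6 of these 6 and in 42.9% of 33469 entries, TATAAA in Postn alone and in 12.9% of entries, and the CArG box of serum response factor in 0 of the 6 and in 1.50% of entries. A match is a description of these letters and no evidence of binding.

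Sparc, which encodes the collagen-binding matricellular protein osteonectin, had 1 feature that was dim and 1 that was not. Over both features it had 0.22, -0.14, -1.13 and -0.82 on replicates 1 to 4, with a mean of -0.47 ± 0.62 (SD, n = 4). Without the dim feature these were 0.50, -0.37, -0.66 and -0.12, on the same sides of 0 as Fn1 and Fbn1 on all 4 arrays. The coefficient of Sparc was -0.47 (SE 0.34) over both features and -0.16 (SE 0.25) without the dim one, with an adjusted p of 0.9999 in each limma fit.

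Dcn, the gene of decorin, showed how far the averaging of features set a value. Over both features it had 0.57, 0.49, 0.49 and -1.64 on replicates 1 to 4, and a mean of -0.02 ± 1.08 (SD, n = 4). The dim feature had 1.86 on replicate 3 and -3.50 on replicate 4, where the other had -0.88 and 0.22. With the dim feature left out the ratios of Dcn were 1.04, 0.40, -0.86 and 0.12, so replicate 3 rather than replicate 4 lay below 0, and the coefficient was 0.18 (SE 0.36). Dcn and Lum lie near each other on chromosome 7 and encode related proteoglycans. Without dim features they had 1 sign in common on replicates 1, 2 and 3, but differed by 2.38 on replicate 4, where Dcn had 0.12 and Lum -2.26.

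**Figure D3:**
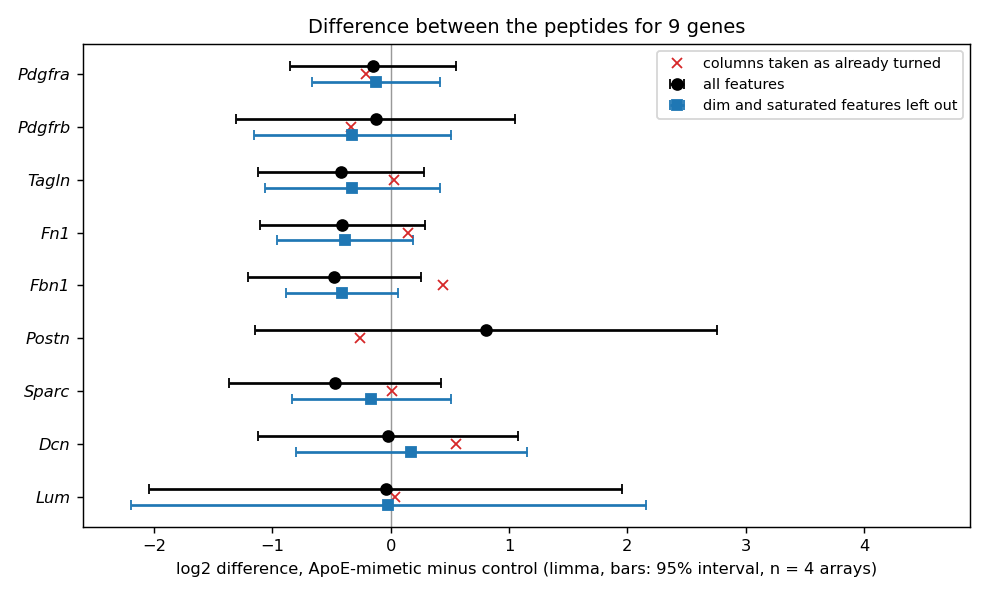
Difference between ApoE-mimetic and control (x axis, log2 units) for the 9 genes, with limma coefficients and 95% intervals over all features (black circles) and with dim and saturated features left out (blue squares), and the coefficient with columns taken as already turned (red crosses). Every interval includes 0, and those of Postn and Lum are the widest.

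A second reading takes the columns as turned to one direction before deposit, under which the coefficients change and the calls do not. On that reading, limma gave 0 of 9 genes an adjusted p under 0.05, against 0% of all genes, and 0 of 9 an unadjusted p under 0.05, against 3.06%. Dcn then had 0.55, Fbn1 0.45 and Fn1 0.14, and Pdgfrb had -0.34, Postn -0.26 and Pdgfra -0.21. Only the receptors Pdgfra and Pdgfrb kept their sign among the 9 genes, while Tagln (0.03), Lum (0.04) and Sparc (0.01) were near 0.

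The genes around these members, in 9 lists of ligands, pathway and matrix genes, were not called either. With limma, 0 genes of any list had an adjusted p under 0.05 in either direction, against 0% of all genes. At an unadjusted p under 0.05 in limma there were 3, where 3.39% of all genes passed. They were Pdgfd among 4 measured PDGF ligands, and Myocd and Lmod1 among 12 measured contractile genes. The other related lists, of 15, 8, 10, 13, 8, 10 and 7 measured genes, had 0. These genes are named because their p was the smallest in their list. Among the ligands of the PDGF receptors, Pdgfd had -1.99, -1.93, -0.41 and -0.57 on replicates 1 to 4, with a coefficient of -1.23 (SE 0.41, unadjusted p of 0.0343). Pdgfc lay above 0 on every array, with 0.36, 0.39, 0.81 and 0.89 and a coefficient of 0.61 (SE 0.26). No feature of Pdgfb, Pdgfc or Pdgfd was free of dim or saturated values. Pdgfa had a coefficient of -0.17 (SE 0.31) and Pdgfb, with ratios from -1.90 to 1.69, one of -0.06 (SE 0.74).

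Genes of the TGF-beta pathway lay below 0 for 12 of 15 measured members, where 53.0% of all genes did, with a median coefficient of -0.22. On replicates 1 to 4, 6, 4, 7 and 9 of the 15 lay above 0, and the median on replicate 4 was 0.12. On the reading of columns turned before deposit, the median coefficient was -0.07. The ligand gene Tgfb1 had -0.21, 0.27, -0.45 and 0.12 on replicates 1 to 4 and a coefficient of -0.07 (SE 0.24), or 0.07 without dim features. Ltbp3, whose protein binds latent TGF-beta, had -1.02 (SE 0.45), and the endothelial receptor gene Acvrl1 had -0.43 (SE 0.25). Among contractile genes and their regulators, 9 of 12 lay below 0, with a median of -0.21, or -0.03 on the reading of columns turned before deposit. Myocd, encoding the coactivator myocardin of serum response factor, lay below 0 on every array with a coefficient of -0.86 (SE 0.28, unadjusted p of 0.0296). Lmod1, encoding leiomodin of smooth muscle, lay above 0 on every array with 1.00 (SE 0.33, unadjusted p of 0.0326). The 1 feature of each had a dim value, and these genes, both of smooth muscle, took opposite signs.

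By their coefficients, matrix genes outside the group lay mostly on the control side of 0, though no list had its median there on every array. The coefficient was below 0 for 10 of 10 elastic fibre genes (median -0.37), 9 of 10 collagen processing genes (median -0.29), 7 of 8 interstitial collagens (median -0.36), 7 of 8 other leucine-rich proteoglycans (median -0.16) and 8 of 13 matricellular genes (median -0.13), where 53.0% of all genes lay below 0. With dim features left out, 3 of 4 elastic fibre genes (median -0.17), 7 of 10 collagen processing genes (median -0.25) and 6 of 6 collagens (median -0.50) lay below 0, where 51.8% of all genes did. On the reading of columns turned before deposit, the median coefficient was 0.19 for elastic fibre genes and 0.03 for collagens, so their side depends on the reading. It stayed below 0 for collagen processing genes (-0.10), other leucine-rich proteoglycans (-0.17) and matricellular genes (-0.02). The arrays also differed between lists. On replicates 1 to 4 the median was 0.34, 0.004, -1.10 and -0.91 for collagens. It was -0.95, -0.09, -0.04 and 0.44 for other leucine-rich proteoglycans, and 0.001, -0.45, -0.43 and -0.35 for elastic fibre genes. Members of a list were measured on the same 4 arrays and are not replicates.

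Over all features, the major interstitial collagen genes took the sides of Lum and Postn on each array. Col1a1 had 0.34, 0.69, -1.33 and -1.92 on replicates 1 to 4, with a coefficient of -0.55 (SE 0.56). Col3a1 had 0.35, 0.03, -1.73 and -1.46, with -0.70 (SE 0.48). Both were above 0 on replicates 1 and 2 and below 0 on replicates 3 and 4. With dim features left out, Col1a1 had 0.56, 0.25, -1.24 and -1.67 and kept these sides, whereas Col3a1 had 0.70, -0.15, -1.19 and -1.26 and lay below 0 on replicate 2. Of the other matrix genes, Fmod, a proteoglycan gene, had -1.31 (SE 0.66), Emilin1, an elastic fibre gene, -0.61 (SE 0.26) over all features and -0.13 (SE 0.19) without its dim one, Eln, which encodes elastin, -0.40 (SE 0.24), and Bmp1, which encodes the procollagen C-proteinase, -0.39 (SE 0.24). The matricellular genes Smoc1 and Smoc2 had 0.67 (SE 0.26) and -0.79 (SE 0.44). Eln and Smoc1 had no feature free of dim or saturated values.

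**Figure D4:**
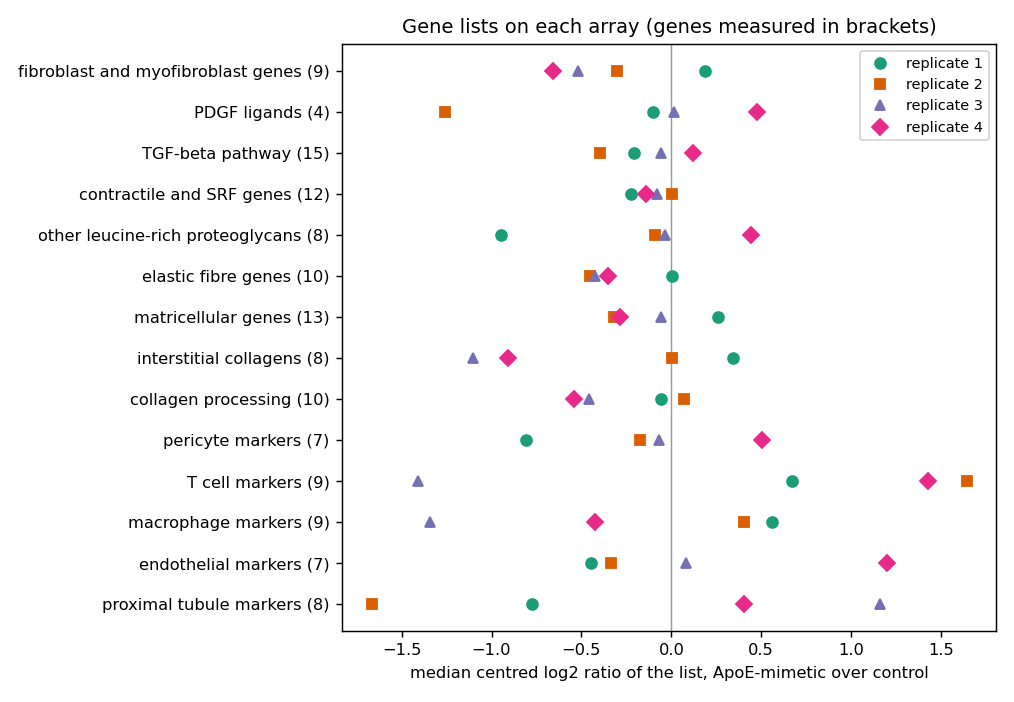
Median centred log2 ratio of ApoE-mimetic over control (x axis) on each of the 4 arrays for the 9 fibroblast and myofibroblast genes, the 9 lists of related genes and 4 lists of markers of other cell types. The fibroblast and myofibroblast genes lie between -0.66 and 0.18, and the interstitial collagens between -1.10 and 0.34. The T cell markers run from -1.41 on replicate 3 to 1.64 on replicate 2 and the proximal tubule markers from -1.66 on replicate 2 to 1.16 on replicate 3.

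The medians of markers of other cell types spread over the arrays with SDs from 0.75 (endothelial) to 1.39 (T cell), against 0.37 for the fibroblast and myofibroblast genes. Among the related lists this SD ran from 0.10 (contractile genes) to 0.74 (PDGF ligands), with 0.70 for the interstitial collagens. A median over genes hides swings of single ones, such as those of Lum (SD 1.81) and Postn (SD 1.79). T cell markers were above 0 for 9, 9, 0 and 8 of 9 genes on replicates 1 to 4, with summed ratios of 6.40, 15.7, -13.7 and 9.48 and medians of 0.67, 1.64, -1.41 and 1.43. Macrophage markers were above 0 for 9, 7, 1 and 2 of 9 genes, with summed ratios of 5.03, 2.91, -11.1 and -3.45. Proximal tubule markers were above 0 for 1, 2, 7 and 4 of 8 genes, with summed ratios of -9.91, -10.03, 7.50 and 7.31. The medians of macrophage markers, 0.56, 0.41, -1.34 and -0.42, were above 0 on replicates 1 and 2 and below 0 on replicates 3 and 4, the sides taken by Postn, Lum, Col1a1 and Col3a1 when every feature is averaged. Without dim features, the macrophage medians were 0.78, 0.54, -1.26 and 0.22, so replicate 4 lay above 0. Their part in these ratios was not tested.

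Vascular cells carry some of the same genes. Pericyte markers were above 0 for 3, 1, 3 and 5 of 7 genes on replicates 1 to 4, with summed ratios of -4.30, -4.33, -0.50 and 3.29, and endothelial markers for 2, 3, 5 and 5 of 7, with summed ratios of -2.71, -0.61, 0.89 and 4.61. The median of the pericyte markers was -0.81 on replicate 1 over all features and 0.10 with dim features left out. Rgs5, a pericyte marker, had -1.36, -1.07, 0.10 and 0.51, and Cspg4, which encodes the pericyte proteoglycan NG2, had -1.46, -1.39, 0.44 and 0.28. Both lay below 0 on replicates 1 and 2 and above 0 on replicate 4, as Pdgfrb did, and opposite to Pdgfrb on replicate 3. Pecam1, of endothelial cells, had -1.61, -0.68, -0.37 and 0.95 over all features, and -0.77, -0.63, -0.35 and 0.37 without its dim one. Tie1, also endothelial, had 0.04, 0.65, 0.50 and -0.02, with no feature free of dim or saturated values. The coefficient was -0.43 for Pecam1 and 0.29 for Tie1. It lay above 0 for 5 of the 7 endothelial markers, where 53.0% of all genes lay below 0. The part of pericytes and endothelial cells in the receptor ratios was not tested, and since the values are ratios, no marker could be checked for absence.

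The 5 named genes with ratios closest to the median of the group, by root mean square distance over the 4 arrays among 6717 genes with a feature neither dim nor saturated, were Ap2b1, Zbtb7a, Cnppd1, Haus8 and Tubb3. Their distances were between 0.063 and 0.104. Ap2b1 had 0.27, -0.28, -0.43 and -0.68 on replicates 1 to 4, where the group's median was 0.18, -0.30, -0.52 and -0.66. With only 4 arrays such likeness is a description of these ratios.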

How the data were processed

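Ratios were measured on 4 two-colour arrays of rat kidney allografts. Per the labels, RNA was labelled with an Agilent QuickAmp kit. The authors deposited 1 ratio per feature and array, read here as log2 Cy5 over Cy3, with 26 to 58 values missing per array. Scanner, numerator, log base and normalization: not given in the sources used here. As deposited, column medians were -0.17, -0.04, -0.10 and -0.58. Features were named from the array annotation through gene numbers in a RefSeq table of GRCr8 (25306 of 25353 features with 1 symbol matched). Ratios were averaged per gene, each array was centred on its median gene, and limma 3.58.1 in R 4.3.3 (lmFit, eBayes) was fitted with a treatment and a dye coefficient over the 14847 genes with values on all 4 arrays. P-values are two-sided, adjusted by Benjamini-Hochberg at 0.05. SDs are over the 4 turned arrays, SEs and intervals from limma, after the dye term. Of 45220 features, 13363 were neither dim nor saturated, a saturated one holding the shared value next to 0. The number of arrays limits the precision. The fit was tested on simulated data with independent arrays and with changes larger than the coefficient of any member. It therefore does not show whether changes of the size seen here could be found. The members and lists were chosen with earlier results of these data known. Named genes were all members, the 2 genes per list with the smallest unadjusted p, the 5 nearest profiles (passing over placeholder symbols), Tgfb1, the PDGF ligands, Col1a1 and Col3a1; not every gene of the rule is described. Alternatives were the dye term, centring, the columns' direction, dim features, centring by grid block, array scaling, the median over features and each replicate left out; features annotated to a RefSeq mRNA only were added after seeing the data.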

Additional observations from a re-analysis of the deposited data

Results flagged for a closer look

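Of 66 sets of 4 array values examined, 2 had a single array far from the other 3 by Dixon's test at the 95% level. Chance gives about 1 in 20 such sets. Dcn had -1.64 on replicate 4 against 0.49 to 0.57 on the others, with a gap of 0.96 of the range, and that value came from its dim feature. Fn1, with arrays centred on features neither dim nor saturated, had 0.31 on replicate 1 against -0.67 to -0.57 on the others, with a gap of 0.89 of the range. All 11 Fn1 features are of that kind, so only the centring differed. With the main centring Fn1 had 0.11, -0.64, -0.63 and -0.46 and was not flagged.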

How the results depend on the processing

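Pairing within an array was used throughout, since each value is a ratio of the samples on 1 array. No other pairing could be tried, because the 4 arrays form 1 group. With limma, 0 genes passed at an adjusted p under 0.05 under each of the 16 alternatives run, the unadjusted count ranged from 95 (dim features left out) to 1184 (without replicate 2) against 503, and the lowest adjusted p was 0.579. The members' median coefficient ranged from -0.36 to 0.03 against -0.15, and from -0.36 to -0.13 with a replicate left out. Of 71 gene values under other settings, 13 changed sign. With columns taken as already turned these were Tagln at 0.032, Fn1 at 0.14, Postn at -0.26, Fbn1 at 0.45, Dcn at 0.55, Lum at 0.037 and Sparc at 0.012. Dcn also changed to 0.18 with dim features left out, 0.18 with scaled arrays, 0.15 with RefSeq mRNA features and 0.045 uncentred, and Lum to 0.20 with scaled arrays and 0.025 uncentred. With a replicate left out, the coefficient ranged from -0.33 to 0.032 for Pdgfra, -0.69 to 0.43 for Pdgfrb, -0.054 to 1.67 for Postn, -0.55 to 0.51 for Dcn and -1.08 to 1.00 for Lum. With the dye term left out as well, Pdgfrb changed to 0.10 without replicate 1 and 0.13 without replicate 2, Lum to 0.20 without replicate 3 and 0.66 without replicate 4, and Dcn to 0.52 without replicate 4. Tagln (-0.61 to -0.23), Fn1 (-0.59 to -0.22), Fbn1 (-0.68 to -0.28) and Sparc (-0.81 to -0.13) kept their sign with a replicate left out, but each moved by over 1.5 times under at least 1 omission, namely of replicate 2 for Tagln, 3 for Fn1, 4 for Fbn1 and of 1, 3 or 4 for Sparc. The cause of these changes was not tested. Postn has no value with dim features left out. Signal over background could not be used, since the values are ratios.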
